A study of Mus musculus with 10 samples.

Results

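The *Zbtb16* KO and WT prefrontal cortex (PFC) was compared for the transcripts of 7 subunits of the GABA-A receptor, *Gabra2*, *Gabra3*, *Gabra4*, *Gabra5*, *Gabrb1*, *Gabrb2* and *Gabrd*. These genes were chosen by name, with earlier results of these data known, and are 7 of the 22000 genes in the count table. All 7 were among the 14344 genes with enough reads to be tested. RNA-seq was performed on 5 KO and 5 WT mice, with 1 library per mouse of total RNA from the PFC, all described as male and 7 weeks old. The KO mice were homozygous for *lu*, a nonsense point mutation of *Zbtb16* carried by the B6.C3-*Zbtb16* lu/J strain, and the WT mice were wild type for it. *Zbtb16* encodes a zinc finger transcription factor. The subunit transcripts were compared between the genotypes, gene by gene and as subunits of synaptic against extrasynaptic receptors.

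GABA-A receptors are chloride channels made of 5 subunits around a pore and opened by GABA, the main inhibitory transmitter of the cortex. Alpha and beta subunits form the GABA sites. A gamma subunit next to subunits such as alpha2 or alpha3 places most receptors at synapses, where they carry fast inhibition. Receptors with a delta subunit, often with alpha4, and many receptors with alpha5 lie outside synapses and carry a steady, tonic inhibition. Beta subunits belong to both kinds. *Gabra2* is a gene whose transcript level is known to differ between inbred mouse strains.

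Bulk counts can separate the subunits only as far as their sequences differ. The coding sequences of the 4 alpha genes were 59.1% to 68.4% identical in pairs. The most alike stretch is shown because it marks how far reads of 1 subunit could be taken for another. It encodes part of the third transmembrane segment, where 46 of 60 bases were identical in all 4 genes. Capitals mark the positions that differ in at least 1 gene. The stretches lie on the minus strand of GRCm38, in coding exons, at chr5:70973491-70973550 for *Gabra2*, chrX:72445250-72445309 for *Gabra3*, chr5:71623978-71624037 for *Gabra4* and chr7:57413661-57413720 for *Gabra5*.
Gabra2: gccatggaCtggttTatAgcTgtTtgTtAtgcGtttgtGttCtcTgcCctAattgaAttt
Gabra3: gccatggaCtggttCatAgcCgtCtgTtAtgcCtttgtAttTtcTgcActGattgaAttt
Gabra4: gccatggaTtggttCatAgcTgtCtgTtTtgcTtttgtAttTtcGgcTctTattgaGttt
Gabra5: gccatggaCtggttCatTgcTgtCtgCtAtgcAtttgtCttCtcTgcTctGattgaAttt
Differences were spread along the stretch, most of them at single bases. Transcripts were compared in the sense direction alone. The longest run of identical bases between the transcripts of any 2 of the 7 genes was 24 bases, against reads of 101 bases. That run is shared by *Gabra3* and *Gabra5*.
Shared run: ggctactttgtcatccagacctac
Over the 21 pairs of genes, the longest shared run in this direction lay between 11 and 24 bases. A whole read that fits 2 of the subunit genes equally well was thus not found in the annotated sense transcripts. On opposite strands, *Gabra4* and *Gabrb1* share 46 exon bases, which is also less than a read of 101 bases.

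The genes lie on 5 chromosomes of GRCm38 (Gencode M21). *Gabra2* (ENSMUSG00000000560.9) occupies chr5:70957597-71095849 on the minus strand. *Gabra4* (ENSMUSG00000029211.11, chr5:71569749-71658308, minus strand) and *Gabrb1* (ENSMUSG00000029212.11, chr5:71658113-72149037, plus strand) are its neighbours and stand head to head. Their first exons share 46 bases on opposite strands, and since it is not stated whether reads were counted by strand, counts from these bases cannot be assigned with certainty. *Gabra3* (ENSMUSG00000031343.13) lies at chrX:72432681-72656848 on the minus strand. *Gabra5* (ENSMUSG00000055078.7) lies at chr7:57407672-57510059 on the minus strand. *Gabrb2* (ENSMUSG00000007653.12) lies at chr11:42419757-42629028 on the plus strand, and *Gabrd* (ENSMUSG00000029054.8) at chr4:155384980-155398112 on the minus strand.

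The libraries held 30220122 to 51231439 counts, and the 7 genes had 1660 to 10085 counts each per mouse. *Zbtb16*, the mutated gene, was at 42.1 to 52.8 CPM (counts scaled to a common library total) in KO mice and 70.7 to 88.3 CPM in WT mice (log2 fold change -0.67, standard error 0.06, adjusted p = 2.8e-05 by edgeR, with p-values adjusted by Benjamini and Hochberg's method over all tested genes). Mice also differed in ways that genotype does not give. The RNA integrity number (RIN) was 8.1 to 8.3 in 4 mice (KO mice 3 and 5, WT mice 3 and 4) and 9.5 to 9.8 in the other 6. KO mouse 3 had 1 count on 4 Y-linked genes, against 4376 to 8182 in the other mice, which goes against its label as male. KO mouse 5 stood apart on the first surrogate variable, with a weight of 0.87 against -0.30 to 0.11 in the other mice. A score of 11 striatal marker genes ran from -0.51 to 0.84, highest in WT mouse 5, KO mouse 5 and KO mouse 4. It is the mean of their log2 levels after each gene's own mean over all mice was subtracted, without scaling to a common spread. The values below are CPM scaled by TMM normalization, unless another scale is named.

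In the PFC of KO mice 6 of the 7 subunit genes had fitted levels of 0.938 to 0.995 times those of WT mice, and *Gabra2* had a fitted level 1.36 times that of WT mice (95% confidence interval 1.06 to 1.75). Without surrogate variables *Gabra5* and *Gabrb1* were on the other side, with log2 fold changes of 0.02 and 0.04. None of the 7 had an adjusted p under 0.05 by edgeR with 3 surrogate variables, where 0.844% of all tested genes (121 of 14344) did. An unadjusted p under 0.05 was reached by 1 of the 7, *Gabra2*, and by 10.6% of all tested genes, and DESeq2 and limma also called 0 of the 7. The median log2 fold change was -0.02 over the 7 genes, beside -0.0044 over all tested genes. Values of KO and WT mice overlapped for all 7 genes, while they did not overlap for 1.58% of the tested genes. The number of all genes called depended on single mice: it was 59 without KO mouse 1, 248 without KO mouse 2, 54 without KO mouse 3, 39 without WT mouse 3 and 65 without WT mouse 4. Without KO mouse 3, whose Y-linked counts go against its label, 0 of the 7 subunit genes were called.

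**Figure D1:**
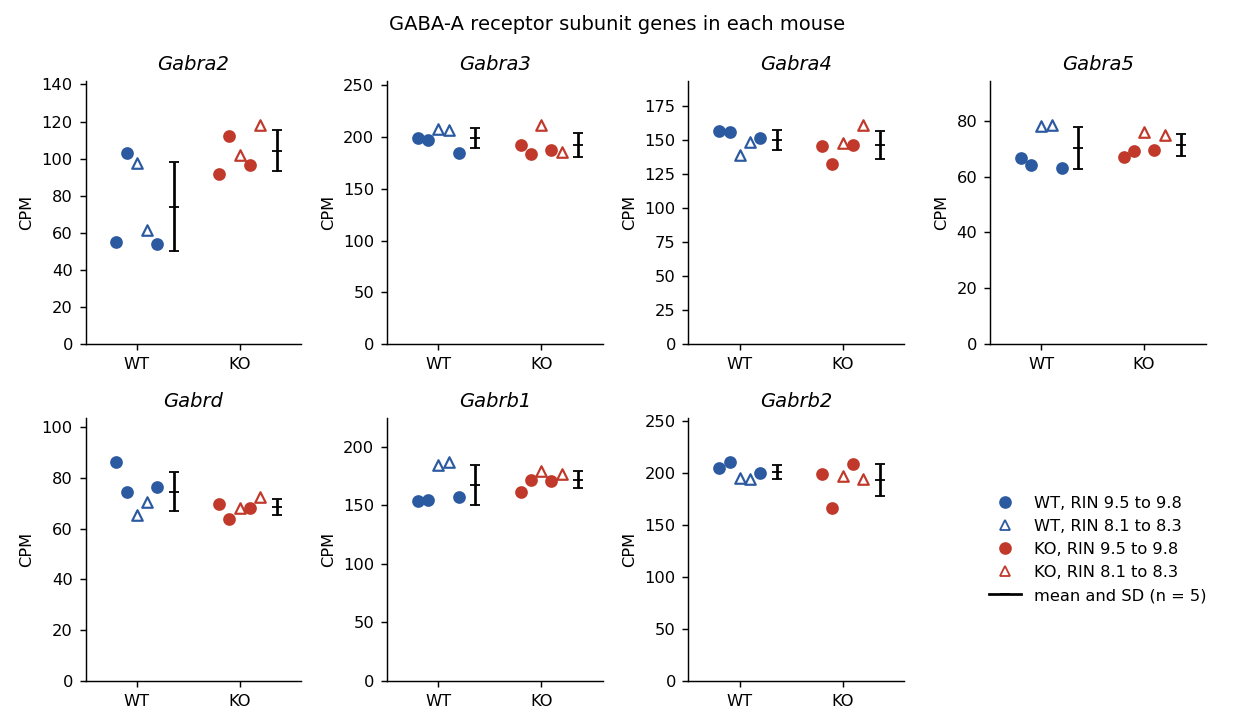
CPM of each of the 7 subunit genes (vertical axis, from 0) in the 5 WT and 5 KO mice, with triangles for the 4 mice with a RIN of 8.1 to 8.3 and the mean and SD of each genotype in black. *Gabra2* has 3 WT mice at 54.0 to 61.3 CPM and all other mice at 91.7 CPM or more, and for *Gabra5* and *Gabrb1* the triangles lie above the circles.

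Among the synaptic subunits, *Gabra2* encodes alpha2, which is found at synapses of cortical principal neurons, including those on the axon initial segment. It was at 91.7, 112.4, 102.1, 96.5 and 118.2 CPM in KO mice 1 to 5 and at 55.1, 102.8, 97.7, 61.3 and 54.0 CPM in WT mice 1 to 5. WT mice 2 and 3 thus lay within the range of the KO mice, and WT mice 1, 4 and 5 lay below every KO mouse, with no mouse of either genotype between 61.3 and 91.7 CPM. The KO mean was 104.2 ± 11.0 CPM and the WT mean 74.2 ± 24.0 CPM (SD, n = 5 for both). The log2 fold change was 0.44 (95% confidence interval 0.08 to 0.81, adjusted p = 0.34, edgeR), and an exact two-sided permutation test gave p = 0.0714, where the smallest p that 5 mice against 5 allow is 0.00794. Without WT mouse 2 the gene was called, with a log2 fold change of 0.60 (adjusted p = 0.00853, edgeR), while without WT mouse 3, the other high WT mouse, it was not (0.65, adjusted p = 0.227). Over all 21 alternative fits the log2 fold change stayed positive, from 0.34 to 0.65, and the adjusted p ran from 0.00853 to 0.687. In WT mice 1, 4 and 5 the RIN was 9.8, 8.2 and 9.5 and the striatal score -0.39, -0.49 and 0.84. The part of either in the low *Gabra2* values of these mice was not tested. Fits over all mice with RIN or the striatal score as covariate gave *Gabra2* log2 fold changes between the genotypes of 0.48 and 0.57 (adjusted p = 0.312 and 0.474, edgeR).

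The spread of *Gabra2* among WT mice was large for a gene of its level. Its coefficient of variation was 32.4% in WT and 10.6% in KO mice. Of the 4770 tested genes with a WT mean of at least 50 CPM it ranked 4 by this measure in WT mice, where the median was 4.82%, and 515 in KO mice, where the median was 5.45%. The other 6 subunit genes had coefficients of variation of 3.49% to 10.7% in WT mice. The ranking is a description made after the values had been seen.

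Within 2 Mb of *Gabra2* on chromosome 5 there were 11 other tested genes, among them 3 more subunit genes of the family. Their coefficients of variation in WT mice were 3.77% to 21.9%, the highest for *Tec*, a kinase gene at 1.14 to 2.09 CPM there. Between the genotypes 0 of the 11 were called in edgeR's test, beside 0.844% of all tested genes. In 0 of the 11 did WT mice 1, 4 and 5 all lie below the other 7 mice, as they did for *Gabra2*. These mice were picked by their *Gabra2* values. The share of all tested genes with this order was not counted, so the 0 cannot be read as particular to the neighbours. *Gabra4*, the nearest member of the family on the right in chromosome order, was at 156.6, 148.5 and 151.5 CPM in these 3 mice and at 156.2 and 138.9 CPM in WT mice 2 and 3. *Gabrg1*, the nearest on the left the gene of gamma1, was at 20.8, 23.5 and 23.3 CPM in the 3 mice and at 23.9 and 20.1 CPM in WT mice 2 and 3. For both genes the 3 mice did not stand apart from the other WT mice.

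**Figure D2:**
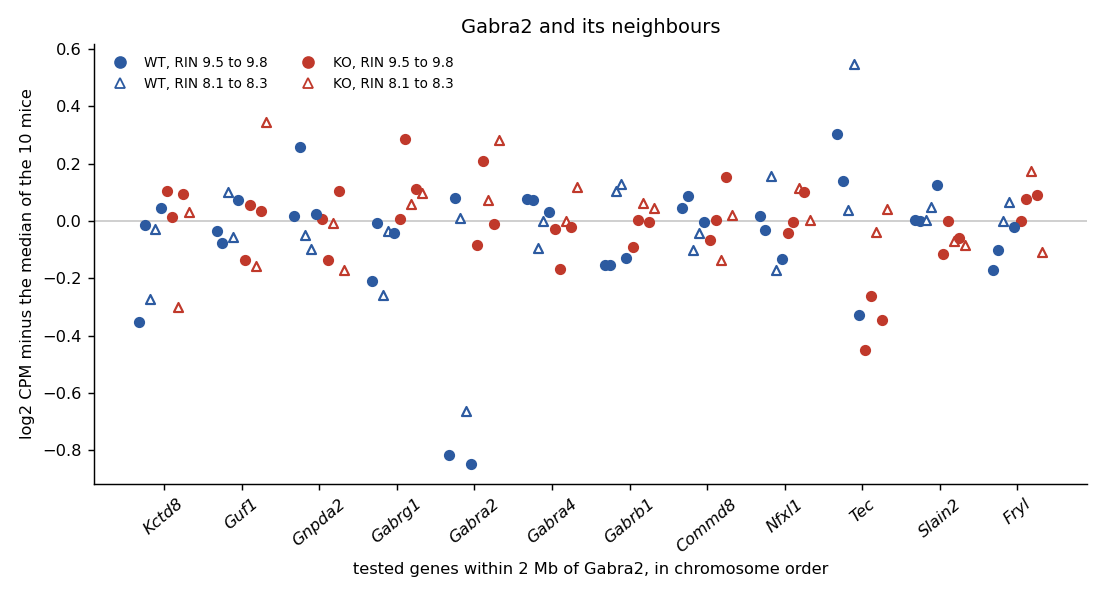
Log2 CPM of the 12 tested genes within 2 Mb of *Gabra2*, itself included, minus each gene's median over the 10 mice (vertical axis), in chromosome order, with colours for genotype and triangles for the mice with a RIN of 8.1 to 8.3. At *Gabra2*, WT mice 1, 4 and 5 lie far below all other mice, and at *Gabra4* and *Gabrb1*, the next genes, they do not.

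The promoters of *Gabra2* and *Gabra4* are shown because these neighbouring subunit genes differed in how much WT mice varied. The windows, of 300 bases, are from RefSeq on GRCm38.p6 and lie across a transcript start, mostly upstream of it. Each is printed in the direction of transcription, from the minus strand, and spans chr5:71095800-71096099 for *Gabra2* and chr5:71658259-71658558 for *Gabra4*. Capitals mark GGGCGG (the GC box) or CCAAT (the CCAAT box) on either strand.
Gabra2: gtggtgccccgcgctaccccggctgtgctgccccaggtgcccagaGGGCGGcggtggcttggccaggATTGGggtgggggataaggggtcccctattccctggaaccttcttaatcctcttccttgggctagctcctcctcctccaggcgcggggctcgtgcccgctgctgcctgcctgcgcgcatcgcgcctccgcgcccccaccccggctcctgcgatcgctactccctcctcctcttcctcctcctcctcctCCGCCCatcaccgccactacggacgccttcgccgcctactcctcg
Gabra4: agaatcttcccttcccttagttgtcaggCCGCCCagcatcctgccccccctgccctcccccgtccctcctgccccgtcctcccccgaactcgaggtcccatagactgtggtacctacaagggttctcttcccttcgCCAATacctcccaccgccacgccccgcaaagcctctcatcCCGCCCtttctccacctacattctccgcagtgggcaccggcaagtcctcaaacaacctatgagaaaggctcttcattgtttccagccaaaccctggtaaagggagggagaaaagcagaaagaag
Both windows hold both motifs. GGGCGG was found in 35.7% and CCAAT in 37.4% of all 32851 promoter windows of this length. The *Gabra2* window had 70.0% GC and 25 CpG sites and the *Gabra4* window 58.7% GC and 12 CpG sites, beside medians of 52.7% and 7 over all windows. Entries existed for 6 of the 7 genes, *Gabrd* being the other, with 10 windows in all. TATAAA (the TATA box) was found in 3 of the 10, all of *Gabra3* or *Gabrb2*, and in 13.6% of all windows. The *Gabra3* windows overlap and hold the same site, which is thus counted more than once. CACGTG (an E-box) was in 0 of the 10 and in 7.15% of all windows. These matches describe letters and no binding was measured.

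*Gabra3* encodes alpha3, the other synaptic alpha subunit among the 7, and is X-linked. It was at 192.6, 184.0, 211.9, 187.7 and 185.4 CPM in KO mice 1 to 5. In WT mice 1 to 5 it was at 199.0, 197.0, 208.1, 206.6 and 184.4 CPM. The groups overlapped over nearly their whole range, and the highest value was that of KO mouse 3, the mouse with 1 Y-linked count. The log2 fold change was -0.04 (95% confidence interval -0.12 to 0.04, adjusted p = 0.754, edgeR; exact permutation p = 0.333) and -0.06 without KO mouse 3 (adjusted p = 0.691).

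Of the extrasynaptic subunits, *Gabra4* encodes alpha4, the usual partner of delta in forebrain neurons. It was at 145.4, 132.1, 148.2, 146.1 and 161.2 CPM in KO mice and at 156.6, 156.2, 138.9, 148.5 and 151.5 CPM in WT mice. Both the highest and the lowest of the 10 values were those of KO mice, 5 and 2. The log2 fold change was -0.03 (95% confidence interval -0.11 to 0.05, adjusted p = 0.873, edgeR; exact permutation p = 0.508).

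*Gabra5* encodes alpha5, the subunit of tonic receptors best known from hippocampal pyramidal neurons. In KO mice it was at 67.0, 69.1, 75.9, 69.5 and 74.8 CPM, and in WT mice at 66.8, 64.3, 78.0, 78.5 and 63.0 CPM. The WT mice held both the highest and the lowest values. The log2 fold change between the genotypes was -0.02 (95% confidence interval -0.13 to 0.08, adjusted p = 0.921, edgeR; exact permutation p = 0.722), and its sign was opposite in 9 of 21 alternative fits.

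*Gabrd* encodes delta, which gives receptors a high affinity for GABA and keeps them outside synapses. It was at 69.8, 64.0, 68.4, 68.2 and 72.4 CPM in KO mice and at 86.5, 74.6, 65.5, 70.4 and 76.3 CPM in WT mice. Every KO mouse lay below the WT mean, 74.7 ± 7.83 CPM (SD, n = 5), yet WT mice 3 and 4 lay within the KO range. The KO mean was 68.6 ± 3.04 CPM (SD, n = 5). The log2 fold change was -0.09 (95% confidence interval -0.22 to 0.03, adjusted p = 0.639, edgeR; exact permutation p = 0.143); the lower end of the interval is a level of 0.861 times that of WT mice.

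The beta subunits of both kinds of receptor showed no call either. *Gabrb1* was at 161.0, 171.9, 178.9, 170.8 and 176.8 CPM in KO mice and at 153.9, 154.1, 184.2, 187.2 and 156.7 CPM in WT mice. WT mice fell into a higher pair, mice 3 and 4, and a lower trio on either side of the KO mice. The log2 fold change was -0.01 (95% confidence interval -0.11 to 0.09, adjusted p = 0.974, edgeR; exact permutation p = 0.571), with the opposite sign in 11 of 21 alternative fits. *Gabrb2* was at 199.2, 166.8, 197.8, 208.8 and 194.1 CPM in KO mice and at 204.6, 211.2, 195.1, 194.4 and 199.8 CPM in WT mice. KO mouse 2 was lowest by a wide step, and the other KO mice lay at or close to the WT range. Its log2 fold change was -0.01 (95% confidence interval -0.08 to 0.06, adjusted p = 0.972, edgeR; exact permutation p = 0.421).

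**Figure D3:**
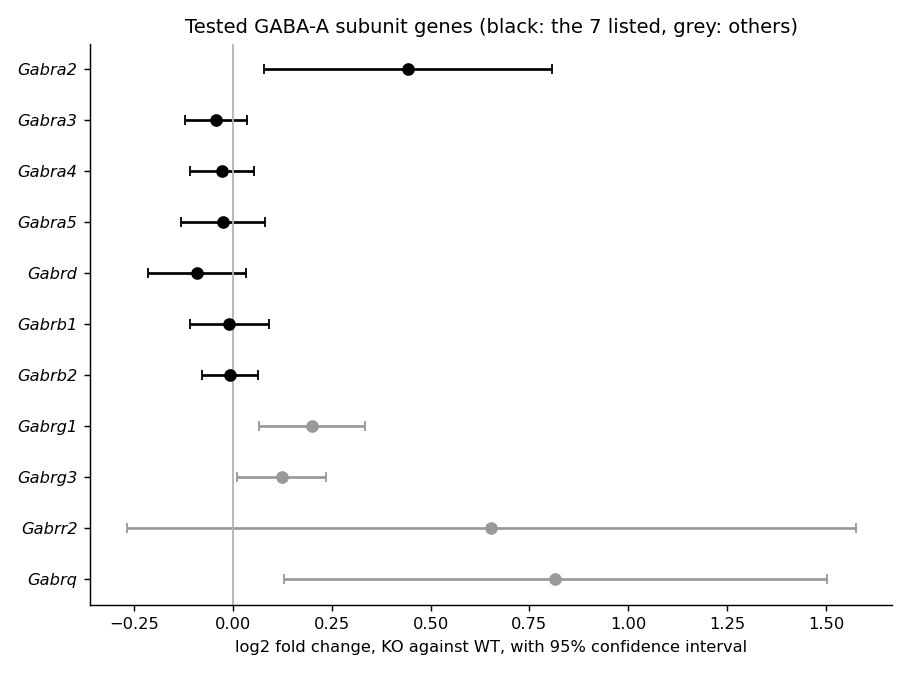
Log2 fold change of KO against WT mice (horizontal axis) with its 95% confidence interval from edgeR's quasi-likelihood fit, for the 7 subunit genes in black and 4 other tested GABA-A subunit genes in grey. *Gabra2* is at 0.44 with an interval from 0.08 to 0.81, and the intervals of the other 6 black points hold 0 and lie between -0.22 and 0.09.

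The contrast of synaptic with extrasynaptic subunits was formed in each mouse as the mean log2(CPM + 1) of *Gabra2* and *Gabra3* minus that of *Gabra4*, *Gabra5* and *Gabrd*. This difference was 0.59, 0.77, 0.68, 0.60 and 0.63 in KO mice 1 to 5. In WT mice 1 to 5 it was 0.12, 0.64, 0.67, 0.26 and 0.15. WT mice 2 and 3 lay among the KO mice and the other 3 WT mice below them, the same 3 mice that lay below the KO mice for *Gabra2* alone. Its mean was 0.65 ± 0.08 in KO and 0.37 ± 0.27 in WT mice (SD, n = 5 for both), 0.28 higher in KO mice, an amount close to the SD of the WT mice. Counting *Gabrb1* and *Gabrb2* with the synaptic subunits gave a difference of 0.16. With *Gabra3* as the only synaptic subunit, a setting chosen after the values had been seen, the means were 1.09 ± 0.09 in KO and 1.10 ± 0.08 in WT mice (SD, n = 5 each), a difference of -0.0077 that is smaller than either SD. The difference between the genotypes in the synaptic mean was thus that of *Gabra2*. No test was run on this contrast, since its members were chosen by name with earlier results known.

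**Figure D4:**
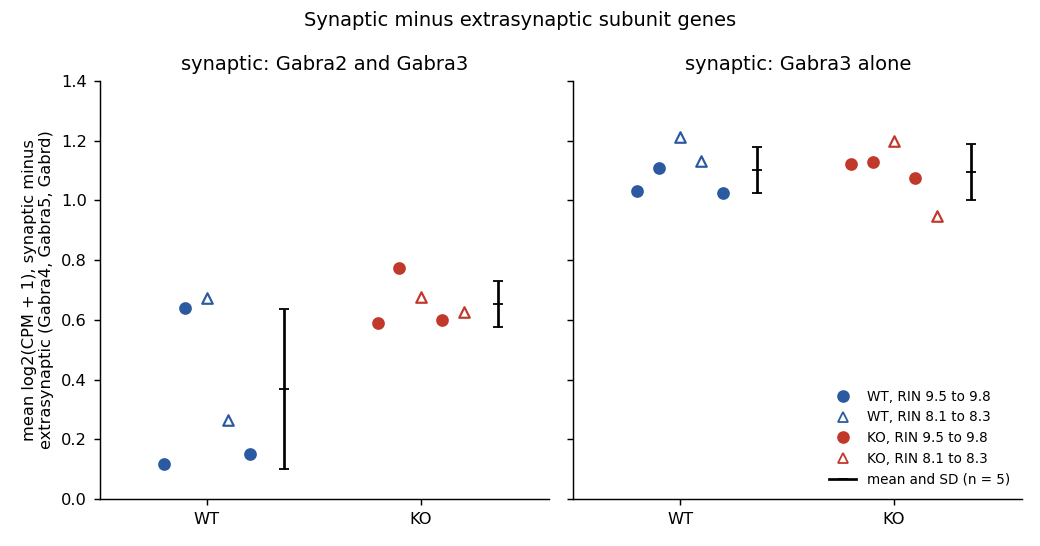
Mean log2(CPM + 1) of the synaptic minus that of the extrasynaptic subunit genes (vertical axis) in each WT and KO mouse, with *Gabra2* and *Gabra3* as the synaptic genes on the left and *Gabra3* alone on the right, with the mean and SD in black. On the left WT mice 1, 4 and 5 lie at 0.12 to 0.26, below all KO mice, and on the right the genotypes overlap at 0.95 to 1.21.

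Levels of different genes were compared as RPKM, that is CPM divided by the length of all annotated exon bases in kilobases. In WT mice *Gabra3* was highest of the 7 at 50.7 ± 2.42 (SD, n = 5), followed by *Gabrb2* at 31.6 ± 1.10. A middle group held *Gabrd* at 26.0 ± 2.72, *Gabra4* at 24.7 ± 1.19 and *Gabra5* at 23.6 ± 2.53, whose ranges over the 10 mice overlapped (22.3 to 30.1, 21.7 to 26.5 and 21.2 to 26.4), so that these 3 genes did not differ beyond their spread. *Gabrb2*, at 26.2 to 33.2, overlapped with *Gabrd* as well and, by a narrow margin, with *Gabra4* and *Gabra5*. Compared within each of the 10 mice, *Gabrb2* was above these 3 genes every time. The lowest 2 were *Gabrb1* at 12.1 ± 1.22 and *Gabra2* at 9.71 ± 3.14 in WT mice, and *Gabra2* was above *Gabrb1* in KO mice (13.6 ± 1.44 against 12.4 ± 0.50), with overlapping ranges of 7.07 to 15.5 and 11.1 to 13.5. On this scale *Gabra3* overlapped with none of the other 6.

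In KO mice the remaining levels per length were 49.0 ± 2.91 for *Gabra3*, 30.4 ± 2.49 for *Gabrb2*, 24.1 ± 1.70 for *Gabra4*, 24.0 ± 1.31 for *Gabra5* and 23.8 ± 1.06 for *Gabrd* (SD, n = 5 each). Of the level per length summed over the 7 genes, *Gabra2* made up 5.42% ± 1.7 in WT and 7.70% ± 0.86 in KO mice, and *Gabra3* made up 28.4% ± 0.76 and 27.6% ± 1.3 (SD, n = 5 each). The order depends in part on the length used. Per length of the longest protein-coding transcript *Gabra2*, at 12.7 in WT mice, was level with *Gabrb1*, at 12.2. *Gabra5* at 26.3 stayed below *Gabra4* at 36.6 and *Gabrd* at 38.9, but its range over the 10 mice no longer overlapped with theirs. On that scale *Gabrb2* was at 50.4 in WT mice, beside *Gabra3* at 54.3, and their ranges over the 10 mice overlapped (41.8 to 53.0 and 50.3 to 57.9).

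**Figure D5:**
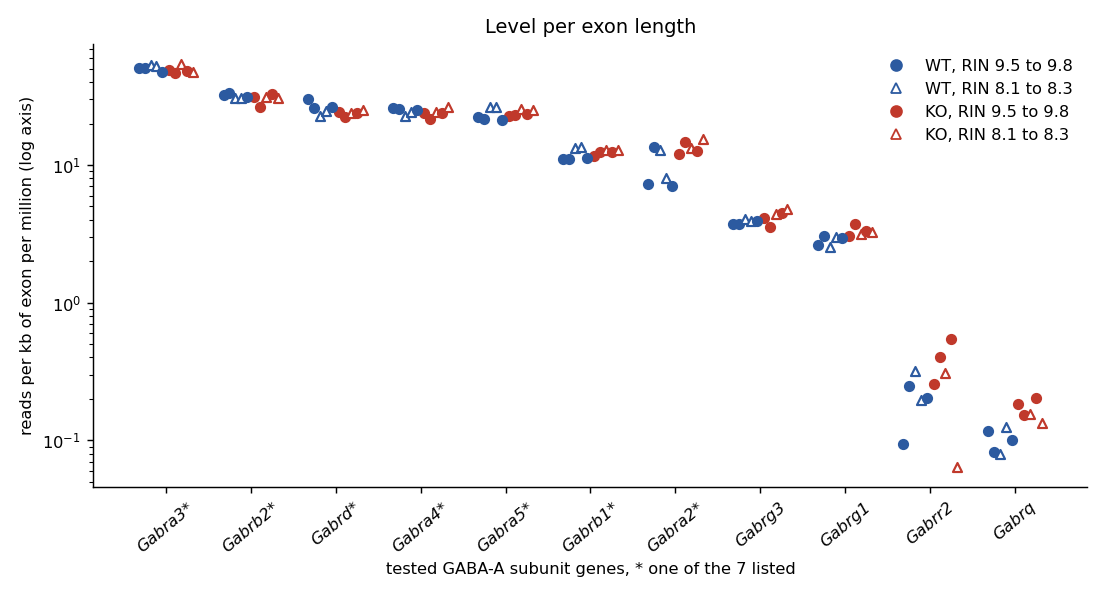
RPKM (CPM per kilobase of exon, vertical axis, log scale) of the 7 listed GABA-A subunit genes, marked by an asterisk, and 4 other tested subunit genes in each mouse, ordered by their mean. *Gabra3* is the highest of the 7 at 46.9 to 54.0, and *Gabra2* has the widest spread of the 7, from 7.07 to 15.5.

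*Gabra5* and *Gabrb1* were higher in all mice of lower RIN than in all mice of higher RIN, in a comparison chosen after their values had been seen. *Gabra5* was at 74.8 to 78.5 CPM in the 4 mice with a RIN of 8.1 to 8.3 and at 63.0 to 69.5 CPM in the 6 mice with a RIN of 9.5 to 9.8. *Gabrb1* was at 176.8 to 187.2 CPM in the former and at 153.9 to 171.9 CPM in the latter. For both genes every mouse of lower RIN lay above every mouse of higher RIN, as did the values of 1.32% of all tested genes. In a model of genotype and RIN class without surrogate variables the log2 difference was 0.21 for *Gabra5* (95% confidence interval 0.11 to 0.30, adjusted p = 0.0619, edgeR) and 0.17 for *Gabrb1* (0.08 to 0.26, adjusted p = 0.105). Neither had an adjusted p under 0.05 by edgeR, nor did any other of the 7, and 0.335% of all tested genes did. Of the 7, these 2 reached an unadjusted p under 0.05 in this fit, and the share of all tested genes that did so was not counted.

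Within each RIN class the genotypes were compared by their means, with 3 mice per genotype at high RIN and 2 at low RIN. *Gabra2* was higher in KO than in WT mice in both classes, at 100.2 against 70.7 CPM at high RIN and at 110.1 against 79.5 CPM at low RIN. *Gabrd* was at 67.4 CPM in KO and 79.2 CPM in WT mice at high RIN, but at 70.4 and 68.0 CPM at low RIN. *Gabrb1* was at 167.9 CPM in KO and 154.9 CPM in WT mice at high RIN, and at 177.8 and 185.7 CPM at low RIN. The means of *Gabra4* were 141.2 and 154.8 CPM at high RIN and 154.7 and 143.7 CPM at low RIN. *Gabra5* (68.5 and 64.7 CPM at high RIN, 75.4 and 78.2 CPM at low RIN) and *Gabrb2* (191.6 and 205.2 CPM, then 196.0 and 194.8 CPM) also changed order. The order of the genotypes was thus opposite in the 2 classes for 5 of the 7 genes. The share of all tested genes with opposite orders was not counted, so this number cannot be read as particular to these genes. A test of the difference between the classes (the interaction of genotype and RIN class in edgeR) gave adjusted p = 0.996 for each of the 5. Unadjusted p-values were 0.0197 for *Gabrd*, 0.0325 for *Gabrb1*, 0.0195 for *Gabra4*, 0.122 for *Gabra5* and 0.344 for *Gabrb2*.

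A further 9 GABA-A subunit genes were examined. Of these, 4 had enough reads to be tested, and 0 of the 4 were called in edgeR's test or limma. DESeq2, which gave an adjusted p for *Gabrg1* and *Gabrg3* alone, called neither. An unadjusted p under 0.05 was reached by 3 of them in edgeR's test, *Gabrg1*, *Gabrg3* and *Gabrq*, and by 10.6% of all tested genes. *Gabrg1* was at 24.1, 29.3, 25.0, 25.9 and 25.7 CPM in KO mice against 20.8, 23.9, 20.1, 23.5 and 23.3 CPM in WT mice, with every KO mouse above every WT mouse, where 1.58% of tested genes had no overlap in either direction (log2 fold change 0.20, 95% confidence interval 0.07 to 0.33, adjusted p = 0.204, edgeR). *Gabrq*, the theta subunit gene, also had all KO above all WT mice, but at 0.71 to 1.09 against 0.42 to 0.67 CPM, or 15 to 37 counts a mouse (log2 fold change 0.82, adjusted p = 0.35).

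*Gabrg3*, the gamma3 gene, was at 50.9 ± 5.53 CPM in KO and 46.2 ± 1.48 CPM in WT mice (SD, n = 5 each). Its log2 fold change was 0.12 (adjusted p = 0.417, edgeR). *Gabrr2*, at 0.14 to 1.15 CPM over all mice, was not called either (log2 fold change 0.65, adjusted p = 0.655). *Gabra6*, known from cerebellar granule cells, had 0 counts in all 10 mice, which allows up to 0.0586 to 0.0993 CPM depending on the mouse (3 counts, counting error only). *Gabre*, *Gabrp* and *Gabrr1* had at most 11, 1 and 6 counts in a mouse, and *Gabrr3* at most 5.

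Genes that cluster, move or assemble GABA-A receptors held the 1 call of the pathway in edgeR's test. Of 21 such genes, all tested, 1 was called higher in KO mice and 0 lower, where 0.844% of all tested genes were called. An unadjusted p under 0.05 was reached by 5 of the 21 in edgeR's test and by 10.6% of all tested genes. The called gene was *Mdga1*, a cell surface protein that binds neuroligin-2 and restrains inhibitory synapses. *Mdga1* was at 29.4, 34.1, 29.2, 25.6 and 19.1 CPM in KO mice and at 18.8, 18.2, 23.7, 21.4 and 20.1 CPM in WT mice (log2 fold change 0.41, standard error 0.07, adjusted p = 0.00677, edgeR's quasi-likelihood test). KO mice 1 to 4 lay above all WT mice and KO mouse 5, the mouse that stands apart on the first surrogate variable, lay among them. The call was lost without surrogate variables (adjusted p = 0.339), with RIN (0.244), the striatal score (0.317) or the replicate block (0.315) in their place, with limma (0.0965), in the 6 mice of high RIN (0.093) and without WT mouse 5 (0.0677), and the log2 fold change in these fits was 0.38 to 0.64. It held without KO mouse 3 (adjusted p = 0.0249). *Hap1*, which carries receptors back to the membrane, had a log2 fold change of 0.17 (adjusted p = 0.0587, edgeR). It was called by DESeq2 (0.17, adjusted p = 0.0152), and without surrogate variables its log2 fold change was 0.36 (adjusted p = 0.52). *Shisa7*, an auxiliary subunit, had a log2 fold change of 0.11 (adjusted p = 0.367). The median over the 21 genes was 0.03.

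Genes for GABA itself were not called. Of 8 genes of its synthesis, vesicular loading, uptake and breakdown, 0 were called and 1 had an unadjusted p under 0.05 in edgeR's test, *Slc6a11*, the astrocytic transporter GAT-3 (log2 fold change 0.11, adjusted p = 0.379). *Gad1*, a GABA-synthesizing enzyme, had a log2 fold change of -0.05 (adjusted p = 0.678), and the median of the 8 was -0.0011. Of the 2 chloride cotransporter genes that set the direction of GABA-A currents, *Slc12a5* (KCC2) was at 0.07 (adjusted p = 0.432) and *Slc12a2* (NKCC1) at -0.08 (adjusted p = 0.542), with 1 unadjusted p under 0.05. Of 5 GABA-B receptor genes 0 were called, none with an unadjusted p under 0.05, and the 2 of smallest p were *Kctd8* (0.13, adjusted p = 0.737) and *Kctd16* (-0.07, adjusted p = 0.847). DESeq2 and limma called none of these 15 genes either. Of all tested genes, 0.844% were called and 10.6% had an unadjusted p under 0.05 in edgeR's test.

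The tissue was checked by marker genes, since subunit transcripts differ between cell types. In bulk tissue fewer cells of a type and less RNA per cell cannot be told apart. The summed level of 5 markers of excitatory cortical neurons was 1947 to 2322 CPM in KO and 1844 to 2150 CPM in WT mice. That of 7 interneuron markers was 796.1 to 894.1 CPM in KO and 856.1 to 952.8 CPM in WT mice. For 11 striatal markers it was 414.2 to 596.5 CPM in KO and 372.3 to 710.9 CPM in WT mice, with *Drd1* not analysed here. None of these 3 lists had a gene called in edgeR's test. An unadjusted p under 0.05 was reached by 0 of the 5, 3 of the 7 and 5 of the 11 genes, beside 10.6% of all tested genes. The log2 fold change was positive for 3 of the 5 excitatory, 1 of the 7 interneuron and 9 of the 11 striatal markers. Granule cell markers of the hippocampus (13.5 to 20.0 against 16.2 to 18.8 CPM, with *Dsp* at 1 to 12 counts a mouse) and thalamic markers (25.1 to 28.2 against 19.9 to 27.0 CPM) were low. The summed levels of astrocyte, oligodendrocyte, microglia and endothelial markers overlapped between the genotypes, with 0 calls. Log2 fold changes were positive for 4 of 4 astrocyte, 0 of 4 oligodendrocyte, 2 of 4 microglia and 0 of 4 endothelial markers. In the same order, 1, 0, 1 and 1 of them had an unadjusted p under 0.05 in edgeR's test, beside 10.6% of all tested genes. The part of cell composition in the values of the 7 genes was not tested beyond a fit with the striatal score as covariate, in which 0 of the 7 were called and *Gabra2* had a log2 fold change of 0.57 (adjusted p = 0.474, edgeR).

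The genes whose profile over mice was most like that of the 7 were found by Pearson's r with the mean standardized log2(CPM + 1) of the 7, after the genotype means had been subtracted. Of the tested genes outside the 7 they were *Ebf2* (r = 0.97, rho = 0.88), *Lrrc6* (r = 0.95, rho = 0.93), *Pcdhga12* (r = 0.95, rho = 0.87), *Cpne8* (r = 0.93, rho = 0.92) and *Gpd1l* (r = 0.93, rho = 0.90), over 10 mice each. That mean profile was lowest in KO mouse 2 (-0.84) and WT mouse 5 (-0.64) and highest in KO mouse 3 (0.55) and KO mouse 5 (0.49). The 5 genes are the top of 14344 ranked on the same 10 libraries, so high values are in part set by the ranking.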

How the data were processed

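Total RNA from the PFC of 10 mice was sequenced as stranded mRNA libraries with paired-end reads of 101 bases. The authors used STAR (2.7.1a) to align reads to mm10, dropped all but uniquely mapped reads, and took counts per gene over protein-coding exons (Gencode M21) from HTSeq (0.9.1, intersection-strict). The strand setting is not given in the sources used here. The deposited values are these raw counts for 22000 genes, and all 10 columns were matched to a sample by its label. Groups and replicate numbers come from the labels.

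The quasi-likelihood test of edgeR (4.0.16, R 4.3.3) was applied to the 14344 genes that passed edgeR's default filter, with TMM factors, genotype and 3 surrogate variables from sva (3.50.0, on log2(CPM + 1), seed 1), Benjamini-Hochberg adjustment over all genes tested and a threshold of 0.05. Surrogate variables are weights per mouse that stand for unrecorded differences between libraries. CPM are counts scaled to a common library total, corrected by the TMM factor. Single genes were also compared by exact two-sided permutation tests on CPM without surrogate variables. Each library is 1 mouse, with 30220122 to 51231439 counts and a floor of 3 counts. No pair of libraries agreed within sampling noise. The scripts were tested on simulated counts.

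The 7 members and the gene lists were chosen with earlier results of these data known. The text names the 7 genes, 9 other GABA-A subunits (the remaining ones are not reported here), the called genes and the 2 of smallest p among the rest of each pathway list, *Zbtb16* and the 5 genes most alike in profile. Alternatives were 0 to 2 surrogate variables, RIN, the striatal score or the replicate number as covariates, DESeq2 (1.42.0), limma (3.58.1), RLE normalization, no filter and leaving out each mouse. A fit of only the 6 mice with high RIN (9.5 or more), the RIN classes and the contrast without *Gabra2* were added after seeing the data. Replicate numbers join different mice: the deviations of same-numbered KO and WT mice from their group means correlated at 0.17, -0.0018, 0.12, -0.11 and 0.10, so they were not taken as pairs. Positions are from Gencode M21 on GRCm38 and promoters from RefSeq on GRCm38.p6. Python 3.11.15, pandas 2.3.3, numpy 2.4.6 and matplotlib 3.10.9 were used for tables and figures.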

Additional observations from a re-analysis of the deposited data

Results flagged for a closer look

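Each subunit gene's 5 values per genotype were checked for a mouse far from the others by Dixon's ratio of its gap to the range. Of the 14 groups of values (7 genes in 2 genotypes), 0 passed the 95% critical value, where chance flags about 1 in 20. The ratio takes the gap beside 1 extreme mouse. It cannot flag 2 mice that lie close together, such as the WT mice with high *Gabra2* or high *Gabrb1* values.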

How the results depend on the processing

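The fits gave 0 of the 7 subunit genes called under 20 of 21 alternatives, and 1 without WT mouse 2 (*Gabra2*, log2 fold change 0.60, adjusted p = 0.00853, edgeR). Directions near 0 changed, none with a call, and the cause was not tested. *Gabra5* was at 0.0239 without surrogate variables, 0.0054 with 1, 0.0134 with 2, 0.0246 with RIN, 0.0634 with the striatal score, 0.0286 with the replicate block and 0.0847 in the 6 mice of high RIN. *Gabrb1* was at 0.0398, 0.0258, 0.03, 0.0423, 0.0617, 0.0446 and 0.118 in the same 7 fits, and 0.00041 with no filter on low counts, where *Gabrb2* was at 0.00269. Leaving out single mice gave log2 fold changes of 0.338 to 0.651 for *Gabra2*, -0.108 to -0.0277 for *Gabra3*, -0.0667 to 0.00724 for *Gabra4*, -0.118 to 0.0141 for *Gabra5*, -0.0831 to 0.0345 for *Gabrb1*, -0.0304 to 0.0239 for *Gabrb2* and -0.165 to -0.026 for *Gabrd*. The contrast of synaptic and extrasynaptic subunits was -0.0077 without *Gabra2* and 0.16 with the beta subunits counted as synaptic.

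Genes called, 121 in the model reported, numbered 30 without surrogate variables, 34 with 1, 57 with 2, 38 with RIN, 9 with the striatal score, 24 with the replicate block, 233 with DESeq2, 8 with limma and 1 in the 6 mice of high RIN, and 39 to 248 when single mice were left out. Pathway genes called, 1 in the model reported, numbered 2 with DESeq2, 0 to 2 when single mice were left out, and 0 without surrogate variables, with RIN, with the striatal score, with the replicate block, with limma and in the 6 mice of high RIN. The replicate block changed no call among the 7 genes. With 5 mice per genotype the 95% intervals limit what could be seen: the interval of *Gabra2* spans 1.06 to 1.75 times the WT level.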
